A study of Sus scrofa with 12 samples.

Results

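Binding sites of the transcription factor C/EBP-β were examined at 10 antiviral genes that interferons induce: MX1, MX2, OAS1, OAS2, BST2, ISG15, IFIT1, IFIT3, RSAD2 and IFIH1. These genes were taken by name from the 19550 protein-coding genes on the assembled pig chromosomes, and all 10 had a position there. The tissue was endometrium, the inner lining of the uterus, of pregnant pigs. One group came from day 12 of pregnancy and the other from day 15, each with 3 libraries of chromatin immunoprecipitated with a C/EBP-β antibody (ChIP). Input chromatin (6 samples) is not analysed here. The sources used here give no breed, genotype or treatment, and nothing in them says that the 3 libraries of a day came from separate animals, so p-values measure only the spread between libraries, which may be technical. Each library is a list of peak summits, single base positions where the authors' peak caller placed the top of a ChIP signal. Every summit has a score, the −log10 of either a p-value or a q-value. The lists hold no reads, so a summit shows where signal was called and not how much, and RNA was not measured. Whole tissue was used, so a summit cannot be assigned to a cell type.

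Interferons bind receptors that signal through Janus kinases to STAT and IRF transcription factors, which switch on the antiviral effectors. IFIH1 (also called MDA5) senses long double-stranded RNA, and the other genes encode proteins that act on viral RNA, on viral particles or on host proteins during infection. In the pig, the conceptus itself secretes interferon gamma and interferon delta around the time of attachment, and the endometrium responds. C/EBP-β is a bZIP factor that acts at many inflammatory and hormone-responsive genes.

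List length varied widely within each day. The lists held 6557, 33294 and 57728 summits on the chromosomes in day 12 replicates 1 to 3 and 70152, 16529 and 11960 in day 15 replicates 1 to 3. Peak names carry a directory path in day 12 replicate 1 and day 15 replicates 2 and 3 (set A) and none in day 12 replicates 2 and 3 and day 15 replicate 1 (set B), so both days occur in both sets. Day 15 replicates 2 and 3 share a sample code. Of their summits 52 (0.435% of the shorter list) fell on identical positions, which does not tell whether they came from 1 sample. The sample name of day 12 replicate 1 and of day 15 replicate 3 does not name the protein. Percentiles below rank a summit by score within its own list and are not compared between days.

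On day 15 every one of the 10 antiviral genes had C/EBP-β summits at most 5 kb from either end in at least 2 of 3 libraries, against 6 of 10 on day 12. Across all protein-coding genes the same rule was met by 46.3% on day 15 and 38.1% on day 12. IFIH1, ISG15, IFIT1 and IFIT3 had such a summit in all 6 libraries, which held for 13.1% of all genes. MX1 and OAS2 had one in every day 15 library and in 0 of 3 from day 12, a pattern of 2.83% of all genes. The opposite pattern, found in 0.0307% of all genes, occurred at none of the 10. Between these ends lay OAS1 (2 of 3 on day 12 and 3 of 3 on day 15), MX2 and BST2 (1 of 3 and 3 of 3 each) and RSAD2 (2 of 3 on both days). Of the 10 genes, 5 had more libraries with a summit on day 15, 0 had more on day 12 and 5 had equal numbers; over all genes the shares with more on day 15 and more on day 12 were 35.3% and 11.2%. With 3 against 3 libraries an exact permutation test cannot give a p below 0.1, the value for MX1 and OAS2 (two-sided exact permutation test of presence, p = 0.1 each, Benjamini-Hochberg adjusted p = 1 over 19550 genes).

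**Figure D1:**
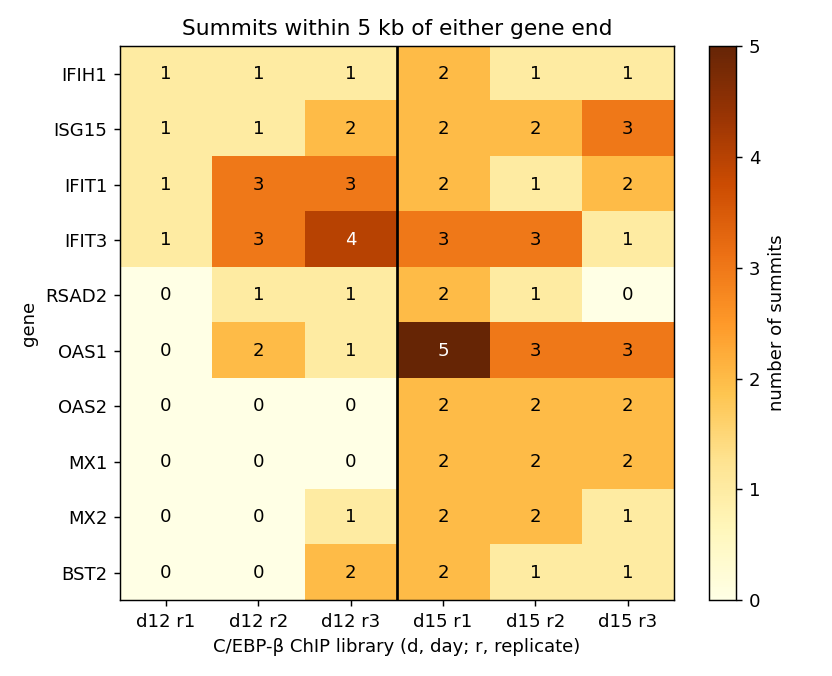
Number of C/EBP-β summits within 5 kb of either end of each gene (rows) in the 6 ChIP libraries (columns, day 12 left and day 15 right of the line). IFIH1, ISG15, IFIT1 and IFIT3 have at least 1 summit in every library, and MX1 and OAS2 have 0 in each day 12 library and 2 in each day 15 library.

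The RNA sensor gene IFIH1 (chromosome 15, 68930998 to 68985145, susScr11) carried the most constant site. A summit lay outside the gene, beyond its upper-coordinate end, at 162, 264 and 282 bp in day 12 replicates 1 to 3 and at 252, 212 and 272 bp in day 15 replicates 1 to 3. All 6 positions fell in 121 bp (chromosome 15, 68985307 to 68985427). Their scores stood high in every list, at percentiles 79.7, 94.5 and 91.1 on day 12 and 96.8, 95.0 and 81.8 on day 15. One further summit, 2473 bp inside the lower end, was called in day 15 replicate 1. The gene table used gives start and end without strand, so which end is the promoter was not read from it.

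ISG15 encodes a small ubiquitin-like protein that is attached to other proteins during an interferon response. Its gene (chromosome 6, 63363201 to 63364211) had a summit beyond the lower end in all 6 libraries, at 303, 303 and 342 bp on day 12 and 205, 229 and 235 bp in day 15 replicates 1 to 3. They lay in a region of 138 bp (63362859 to 63362996). The 3 day 15 positions were closer to the gene than the 3 day 12 positions, and 9.49% of the 2698 regions with 1 summit of each library likewise separated the days in one order or the other. Scores were 6.02, 6.7 and 7.41 on day 12 and 11.2, 37.2 and 8.84 on day 15, that is percentiles 31.2, 50.8 and 53.8, and 62.6, 97.1 and 64.9. A second site, 1354 to 1469 bp beyond the upper end, was present in 1 of 3 lists from day 12 (replicate 3) and in all 3 from day 15. That second site lies nearer to an end of AGRN, which encodes the matrix protein agrin, than to ISG15.

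**Figure D2:**
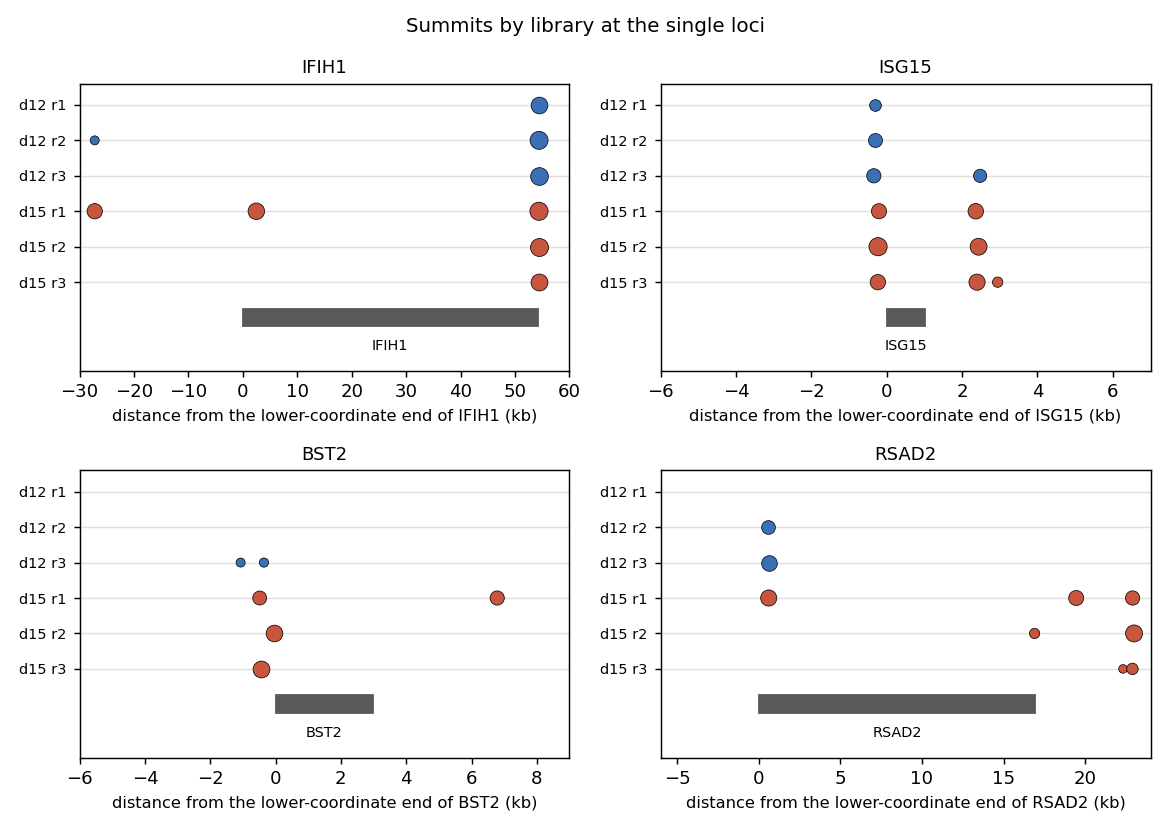
Summits at IFIH1, ISG15, BST2 and RSAD2 in each library (rows, day 12 blue and day 15 red), with distance from the lower-coordinate end of the gene in kb on the x axis, the gene as a grey bar and point size growing with the score percentile in the list. At IFIH1 the 6 libraries line up within 121 bp, and at BST2 day 12 replicates 1 and 2 have no summit in the stretch shown.

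IFIT1 and IFIT3 encode tetratricopeptide proteins, IFIT1 binding viral RNA that lacks the host cap methylation and IFIT3 acting as its partner. The genes are neighbours on chromosome 14 (IFIT3 at 101214730 to 101225169, IFIT1 at 101237403 to 101249486). IFIT1 had 1, 3 and 3 summits within 5 kb on day 12 and 2, 1 and 2 on day 15. No day was higher throughout. Inside the lower end of IFIT1 lay a pair of sites. The first, 85 to 227 bp in, was called in every library except day 15 replicate 1, and 3 of its positions, in day 12 replicates 1 and 3 and day 15 replicate 2, spanned 101237488 to 101237490. The second, 996 to 1049 bp in, was called in day 12 replicates 2 and 3 and day 15 replicates 1 and 3, with a score of 69.1 (percentile 95.5) in day 15 replicate 1. Every library therefore had at least 1 of the pair, and day 12 replicates 2 and 3 and day 15 replicate 3 had both. A further site, 2641 to 2751 bp beyond the upper end, lay nearer to LIPA, the lysosomal acid lipase gene that spans this locus, and was called in the 3 libraries of set B and in none of set A.

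IFIT3 had 1, 3 and 4 summits within 5 kb on day 12 and 3, 3 and 1 on day 15. Its broadest site lay inside the gene, 2240 to 2462 bp from the lower end, in day 12 replicates 2 and 3 and in all 3 day 15 libraries. Another, inside the gene and 4900 to 4978 bp from the upper end, was present in 3 of 3 day 12 libraries and in 1 of 3 day 15 libraries (replicate 1), with percentiles between 15.6 and 91.1. It lay just inside the 5 kb limit. In day 12 replicate 1 it was the only IFIT3 summit within 5 kb (4900 bp, percentile 15.6). The presence of IFIT3 in all 6 libraries therefore rested on it. Beyond the upper end, 2542 to 2560 bp away, a site was called in the 3 libraries of set B and none of set A, where processing set and list length cannot be told apart. At the lower end of IFIT3 itself, 1 bp outside the gene, only day 15 replicate 2 had a summit (percentile 73.4).

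The MX genes encode dynamin-like GTPases that trap viral nucleocapsids, and at both of them summits near the gene ends came mainly from day 15. MX1 (chromosome 13, 204843049 to 204868927) had 0, 0 and 0 summits within 5 kb on day 12 and 2, 2 and 2 on day 15. The proximal one lay outside the lower end at 153, 93 and 116 bp in day 15 replicates 1 to 3 (204842896 to 204842956). It scored 3.96, 34.4 and 6.2, at percentiles 18.7, 96.5 and 47.1. The distal one lay 4697, 4440 and 4282 bp from the same end, at percentiles 23.9, 92.2 and 20.4. No summit of any library fell inside MX1. The groups did not overlap in either processing set: in set A day 12 replicate 1 had 0 and both day 15 libraries had 2, and in set B both day 12 libraries had 0 and day 15 replicate 1 had 2. In set B the 2 lists without the site held 33294 and 57728 summits and the list with it 70152, and both its scores there were low in the list.

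MX2 (204798633 to 204821612), the neighbour of MX1, had 0, 0 and 1 summits within 5 kb on day 12 and 2, 2 and 1 on day 15, all at its lower end. Day 15 replicate 2 had a summit 107 bp outside that end (percentile 68.4) and day 15 replicate 3 one 21 bp inside it, at percentile 1.5. The day 12 summit, in replicate 3, lay 476 bp inside with a score of 2.12 (percentile 4.9). Day 15 replicate 1 had its summits 2377 and 2927 bp inside the gene. The libraries thus shared a gene end rather than 1 position, and 5 of the 6 stood at percentiles from 1.5 to 28.4.

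The OAS enzymes sense double-stranded RNA and make short adenylate chains in response. OAS2 (chromosome 14, 38827667 to 38847697) had 0, 0 and 0 summits within 5 kb on day 12 and 2, 2 and 2 on day 15. Most lay near the upper end, which faces OAS1. Day 15 replicate 2 had one 169 bp outside it (score 10.4, percentile 69.8), replicate 1 had 223 and 1501 bp inside (percentiles 17.3 and 23.8), and replicate 3 had 706 and 1504 bp inside (percentiles 2.7 and 6.3). The closest match was between replicates 1 and 3, whose summits at 38846196 and 38846193 were 1.5 kb from the end. The remaining OAS2 summit, of replicate 2, lay 1283 bp inside the lower end.

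OAS1 (38851083 to 38867427) had 0, 2 and 1 summits within 5 kb on day 12 and 5, 3 and 3 on day 15. Of these 14 summits 5 were the ones at the upper end of OAS2, since both windows cover the gap between the genes. All 5 came from day 15 libraries, and without them the days overlapped in number. Inside OAS1, 4370 to 4511 bp from its lower end, a site was called in day 12 replicate 2 and in all 3 day 15 libraries. Another, 2624 to 2841 bp from that end, was called in day 12 replicates 2 and 3 and in day 15 replicate 2. Without day 12 replicate 1, all remaining libraries had a summit within 5 kb of OAS1. Day 12 replicate 1, the shortest list, had no summit within 50 kb of either OAS gene.

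**Figure D3:**
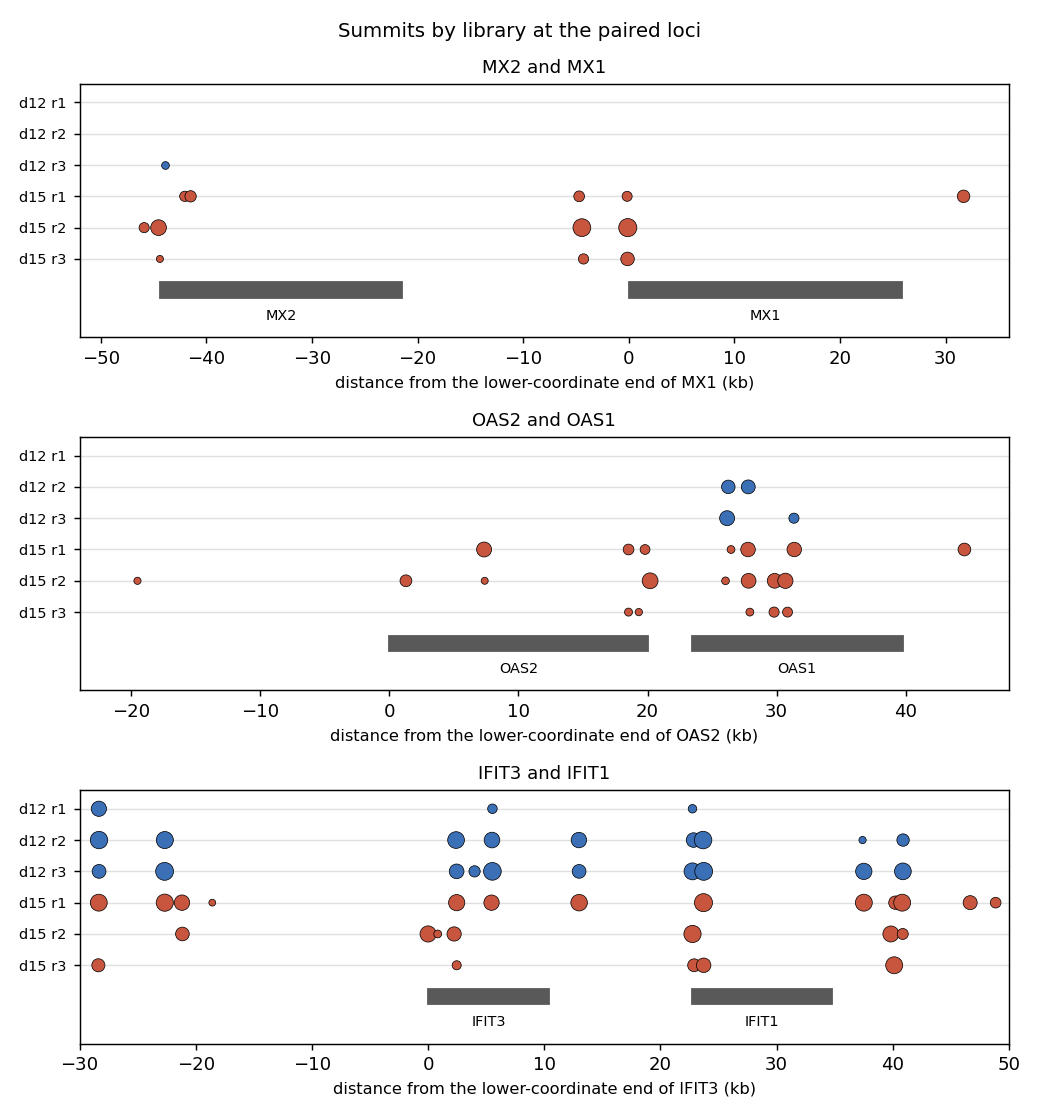
Summits of each library (rows, day 12 blue and day 15 red) at the paired loci, with distance from the lower-coordinate end of MX1, OAS2 or IFIT3 in kb on the x axis, genes as grey bars and point size growing with the score percentile. Red points alone stand at the lower end of MX1 and along OAS2, whereas both colours line up at several positions of IFIT3 and IFIT1.

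BST2 (tetherin) holds budding virions at the cell membrane. Its gene (chromosome 2, 60305306 to 60308295) had 0, 0 and 2 summits within 5 kb on day 12 and 2, 1 and 1 on day 15. Beyond the lower end lay summits of day 15 replicates 1 to 3 at 485, 42 and 431 bp, at percentiles 50.9, 79.3 and 81.2. Day 12 replicate 3 had summits 355 and 1069 bp beyond the same end, at percentiles 13.5 and 12.1. The day 12 and day 15 libraries therefore overlapped in presence at BST2.

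RSAD2 (viperin), an iron-sulphur enzyme that makes a chain-terminating nucleotide, had a nearby summit in 2 of 3 libraries on each day. Its gene (chromosome 3, 128880853 to 128897809) had 0, 1 and 1 summits within 5 kb on day 12 and 2, 1 and 0 on day 15. Inside the lower end, 577 to 621 bp in, a site of 45 bp was shared by day 12 replicates 2 and 3 and day 15 replicate 1, the libraries of set B, and by none of set A. Just past the 5 kb limit, 5360 to 6037 bp beyond the upper end, all 3 day 15 libraries and no day 12 library had a summit. Those summits stood 226 to 451 bp from an end of CMPK2, the adjacent nucleotide kinase gene. CMPK2 itself had 0 of 3 day 12 and 3 of 3 day 15 libraries with a summit within 5 kb, the pattern of 2.83% of all genes.

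Joined within 200 bp, the summits within 5 kb of the 10 genes formed 38 separate regions, 21 of them (55.3%) from 1 library, as were 50.5% of all regions. Of the 38, 2 held a summit of all 6 libraries, those of IFIH1 and ISG15. Over the whole genome 2.73% of 99058 regions did. The site 93 to 153 bp from MX1 was the 1 region with 3 of 3 day 15 and 0 of 3 day 12 libraries, a class of 0.9% of all regions. None of the 38 had 3 of 3 day 12 and 0 of 3 day 15 libraries, against 0.139% of all. In 22 of the 38 regions (57.9%) only day 15 libraries had summits and in 3 (7.89%) only day 12 libraries, against 35.0% and 23.9% of all regions. The shares of all regions include those far from any gene, and none was taken for regions near gene ends alone. They are therefore not a matched comparison for the 38. Of 88 entries of a summit at a gene, 31 lay within 500 bp of a gene end. IFIH1 and ISG15 had such a close summit in all 6 libraries, IFIT1 in 5, BST2 in 4, MX1 and MX2 in 3, OAS2 in 2, IFIT3 and RSAD2 in 1 and OAS1 in 0. No share over all genes was taken at 500 bp, so these counts have no comparison.

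Within 50 kb every one of the 10 genes had a summit in at least 2 of 3 libraries on both days, as did 80.0% of all genes on day 12 and 74.2% on day 15. MX1, ISG15, IFIT1, IFIT3 and IFIH1 had one in all 6 libraries (40.5% of all genes), and none of the 10 separated the days by presence (0.517% of all genes for 3 of 3 day 15 and 0 of 3 day 12). The number of summits was higher in every day 15 library than in every day 12 library at MX1, OAS1 and OAS2. Over all genes 2.84% showed that order and 0.0307% the reverse. The exact permutation test allowed no call at any gene: 0% of 19550 genes had an adjusted p under 0.05, and 0 had an unadjusted p under 0.05, since 0.1 is the smallest possible.

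MX1 had 1, 1 and 5 summits within 50 kb on day 12 and 19, 9 and 7 on day 15. Its mean was 2.33 ± 2.31 on day 12 and 11.67 ± 6.43 on day 15 (SD, n = 3 each), a difference of 9.33 summits (two-sided exact permutation p = 0.1, adjusted 1). The difference was 7 in set A and 16 in set B (exact permutation of libraries inside their set, p = 0.111, the smallest possible). Most of these summits belonged to the neighbourhood and not to MX1: of the 42 in its window, 6 were nearest to MX1 and 30 to TMPRSS2, the membrane protease gene next to it. At TMPRSS2, 29.3 to 29.5 kb from MX1, a site was present in all 6 libraries, which is the one that gave day 12 replicates 1 and 2 their single summit.

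OAS2 had 0, 2 and 4 summits within 50 kb on day 12 and 9, 8 and 5 on day 15, with means of 2 ± 2 and 7.33 ± 2.08 (SD, n = 3 each). OAS1 had 0, 2 and 2 and then 7, 8 and 5, with means of 1.33 ± 1.15 and 6.67 ± 1.53 (SD, n = 3 each). Both differed by 5.33 (exact permutation p = 0.1, adjusted 1), and within sets A and B by 6.5 and 6 at OAS2 and 6.5 and 5 at OAS1. These are largely the same summits counted at each of 2 neighbours. Over the 10 genes, 82 of 195 separate summits fell in more than 1 window of 50 kb, so the genes of the MX, OAS and IFIT pairs are not independent of each other.

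The remaining genes had overlapping or touching groups in the wider window. MX2 had 0, 1 and 3 and then 5, 4 and 3 summits (difference 2.67, exact permutation p = 0.2), and ISG15 had 1, 1 and 3 and then 3, 4 and 4 (difference 2, exact permutation p = 0.2). BST2 had 0, 2 and 7 and then 8, 6 and 3, and RSAD2 0, 1 and 4 and then 4, 2 and 2 (exact permutation p = 0.4 and 0.6). IFIT1 had 2, 8 and 11 and then 15, 7 and 4 (exact permutation p = 0.8). IFIT3 had 3, 9 and 14 and then 18, 7 and 5, and IFIH1 1, 2 and 1 and then 3, 1 and 1 (exact permutation p = 0.9 and 1). At IFIT1 and IFIT3 the numbers followed the lengths of the lists: the 3 long lists of set B gave 8 to 18 and the 3 of set A 2 to 7. Without day 15 replicate 1 the difference was -1.5 at IFIT1, -2.67 at IFIT3 and -0.33 at IFIH1, and without day 12 replicate 1 it was -0.83 at IFIT1 and -1.5 at IFIT3. The median difference over the 10 genes was 2.33 summits, with a range from 0.33 to 9.33, and the median over all genes was 0.33.

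**Figure D4:**
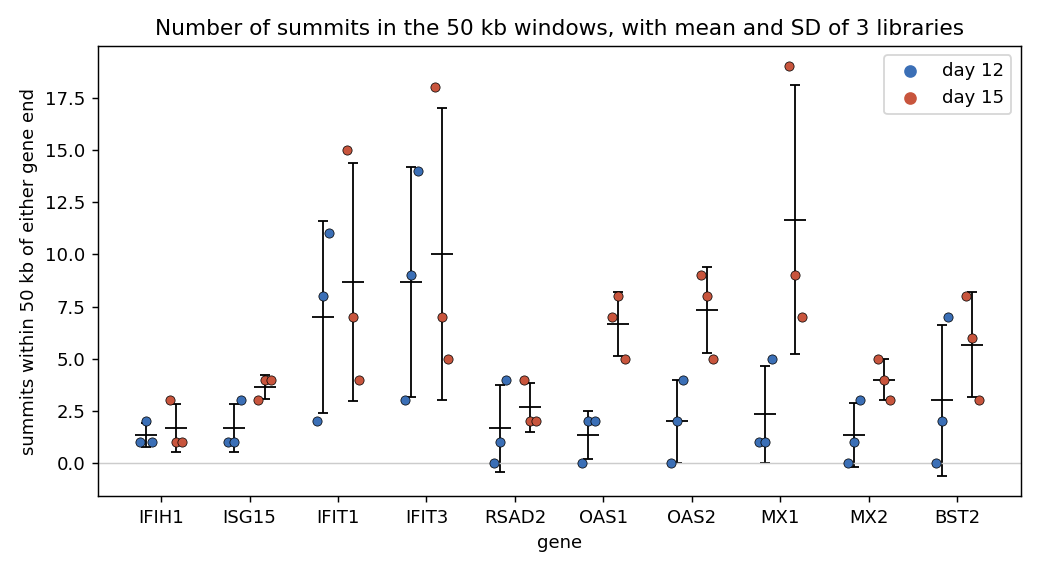
Number of summits within 50 kb of either end of each gene, 1 point per library (day 12 blue, day 15 red), with the mean as a short line and the SD of 3 libraries as whiskers. The red points stand above all blue points at OAS1, OAS2 and MX1, and the colours overlap or touch at the other genes.

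The counts were repeated with fewer summits. When each list was reduced to its 6557 highest-scoring summits, 3 of the 10 genes kept a summit within 5 kb in at least 2 of 3 libraries on day 12 (IFIT1, IFIT3 and IFIH1) and 5 on day 15 (MX1, BST2, ISG15, IFIT1 and IFIH1). Over all genes these shares were 9.68% and 20.3%. IFIH1 and IFIT1 alone kept a summit in all 6 equal lists (3.53% of all genes). None of the 10 then had 3 of 3 day 15 and 0 of 3 day 12 libraries (0.292% of all genes). MX1 and BST2 kept 0 of 3 on day 12 and 2 of 3 on day 15, and OAS1, OAS2 and MX2 kept 0 of 3 and 1 of 3. All of those remaining day 15 summits came from replicates 2 and 3, the libraries of set A, and day 15 replicate 1 kept only IFIT1 and IFIH1.

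With minimum scores other genes held these patterns. With a score of at least 5, BST2 was the 1 of the 10 with 0 of 3 day 12 and 3 of 3 day 15 libraries (3.16% of all genes), while MX1 had 0 of 3 and 2 of 3 and OAS2 0 of 3 and 1 of 3. ISG15 and IFIH1 then had a summit in all 6 libraries (8.45% of all genes). With a score of at least 10, ISG15 was the 1 gene with 0 of 3 and 3 of 3 (2.6% of all genes), and IFIH1 the 1 gene with all 6 (2.95%). For ISG15, day 15 replicate 3 met this minimum only at the site nearer to AGRN (score 10.9, 1387 bp from ISG15). The summit of that library beyond the lower end of ISG15 scored 8.84. Which antiviral genes separated the days completely thus differed between the score settings, and of the 10 only IFIH1 had all 6 libraries at both minimum scores and with equal lists. Leaving out day 12 replicate 3 raised the number of genes with summits in every day 15 and no day 12 library from 2 to 4, adding MX2 and BST2. Leaving out a day 12 list cannot lower this number, and its share over all genes was not taken.

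Around the effectors, the rest of the interferon pathway was taken from lists of its parts, with 102 of 113 listed pathway and marker genes matched by symbol or synonym. Of 25 other effector genes 14 had a summit within 5 kb in at least 2 of 3 libraries on day 12 and 20 on day 15 (56% and 80%). Among them ADAR (an RNA-editing enzyme), CMPK2 and PARP14 had 0 of 3 day 12 and 3 of 3 day 15 libraries. That was the pattern of 2.83% of all genes. TRIM25, a ubiquitin ligase of RNA sensing, had all 6. IFIT2 and IFIT5 (named LOC100151816 in the gene table), next to IFIT3 and IFIT1, had 2 of 3 and 2 of 3, and 2 of 3 and 3 of 3. Of the 8 genes of ISG15 conjugation and of restraint, 7 met the rule on day 12 and 7 on day 15. UBA7, UBE2L6, HERC5 and HERC6, which attach ISG15, and the deconjugating protease gene USP18 had 2 of 3 and 3 of 3 libraries, and HERC5 and HERC6 share a window of 5 kb. SOCS1 and SOCS3, which restrain cytokine signalling, had all 6, and PIAS1 had 1 of 3 on each day. With equal lists ADAR and CMPK2 had 0 of 3 day 12 and 1 of 3 day 15 libraries. PARP14 then had 0 of 3 on both days and TRIM25 had 3 of 3 on both.

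Signalling genes upstream of the effectors had more libraries on day 15 than on day 12 at 4 of 5 kinase and STAT genes, 4 of 9 interferon regulatory factors and 6 of 12 sensors and adaptors, and fewer at 0, 0 and 4. Of all genes 35.3% had more on day 15 and 11.2% fewer. Of the kinase and STAT genes, 3 of 5 had a summit in at least 2 of 3 libraries on day 12 and 5 of 5 on day 15. STAT2 and JAK2 had 2 of 3 and 3 of 3, JAK1 1 of 3 and 3 of 3, and TYK2 0 of 3 and 3 of 3. Among interferon regulatory factors the numbers were 5 and 7 of 9, with IRF2, IRF3 and IRF9 among those in all 6 libraries and IRF7 in 1 of 3 and 3 of 3. IRF9 is the DNA-binding subunit of the complex that type I interferon activates. Of 12 sensor and adaptor genes 7 met the rule on day 12 and 6 on day 15, and MYD88 had 0 of 3 and 3 of 3. With equal lists TYK2 and MYD88 had 0 of 3 libraries on each day. JAK1, JAK2 and STAT2 then had 0 of 3 on day 12 and 2 of 3 on day 15.

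The receptor genes had fewer libraries on day 15 at 4 of 6 and more at 0, against 11.2% and 35.3% of all genes. All 6 met the rule on day 12 and 3 of 6 on day 15. IFNAR2 had 2 of 3 and 1 of 3 libraries, IFNGR1 3 of 3 and 2 of 3, IFNLR1 and IL10RB 3 of 3 and 1 of 3, IFNGR2 2 of 3 on each day and IFNAR1 all 6. With equal lists IFNLR1 had 3 of 3 on day 12 and 1 of 3 on day 15, and IL10RB 3 of 3 and 0 of 3. IFNAR2 and IFNGR1 then had 1 of 3 and 0 of 3, IFNGR2 0 of 3 on both days, and IFNAR1 1 of 3 and 2 of 3. With the full lists the receptor genes had a median difference within 50 kb of -5.5 summits, day 15 minus day 12. However, IFNAR1, IFNAR2, IFNGR2 and IL10RB adjoin each other on chromosome 13 and share windows. Of 7 ligand genes 4 (57.1%) had no summit within 5 kb in any library, against 29.5% of all genes (IFNB1, IFNK, and the genes listed as IFN-ALPHAOMEGA and IFN-DELTA-1). IFNG had one in 1 of 3 on day 12 and in 0 of 3 on day 15, IFNA1 in 1 of 3 on each day, and IFNE, an interferon of the female reproductive tract, in all 6. The windows at the gene ends overlap in short genes and cover less sequence, so 29.5% is not a matched comparison for the ligands. No list was tested against the others, and the counts of genes meeting the rule on day 12 and day 15 stand beside 38.1% and 46.3% of all genes.

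Marker genes of cell types in the endometrium gave a further comparison, by summits alone. Of 13 leukocyte markers 10 (76.9%) had no summit within 5 kb in any library, against 29.5% of all genes, among them PTPRC, CD2, CD3E, CD3D, CD4, CD8A, CSF1R, LYZ and GZMA. CD14 and CD68 met the rule on day 12 and NKG7 as well on day 15, that is 2 and 3 of 13. Of 7 stromal markers 4 met it on day 12 and 7 on day 15, of 5 epithelial markers 2 and 2, and of 5 endothelial markers 1 and 1. Stromal markers had more libraries on day 15 at 6 of 7 genes and on day 12 at 0, against 35.3% and 11.2% of all genes. Their median difference within 50 kb was 3 summits, and their part in the result was not tested. With equal lists PDGFRA had 3 of 3 libraries on each day, and COL1A2 and COL3A1 had 0 of 3 and 1 of 3. COL1A1, PDGFRB, VIM and DCN then had 0 of 3 on both days. Over all genes 9.68% met the rule on day 12 and 20.3% on day 15 with equal lists.

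**Figure D5:**
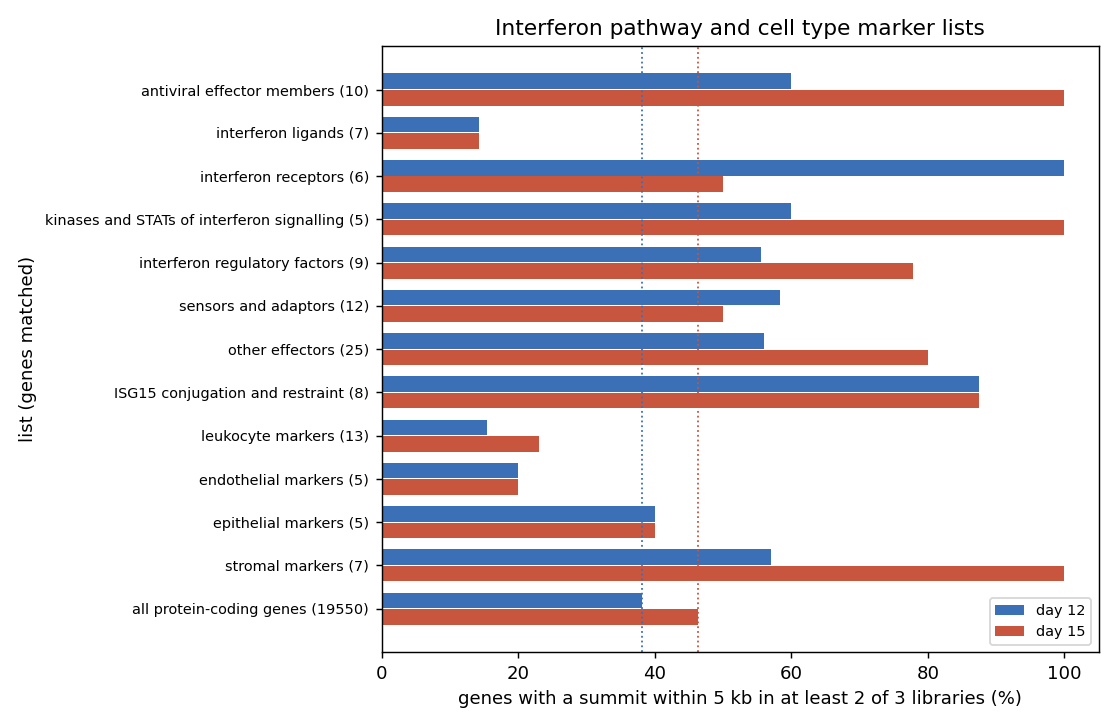
Percent of the matched genes of each list with a summit within 5 kb in at least 2 of 3 libraries, day 12 in blue and day 15 in red, with the shares of all 19550 protein-coding genes as dotted lines. The 10 antiviral genes stand at 60% and 100%, the interferon receptors at 100% and 50%, and the leukocyte markers at 15.4% and 23.1%. The bars use the full lists, which differ in length, and not equal lists.

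Many other genes shared the patterns of these 10. The presence pattern of MX1 and OAS2 within 5 kb was that of 554 genes, that of MX2 and BST2 of 1018, that of OAS1 of 1958, that of RSAD2 of 718 and that of IFIH1, ISG15, IFIT1 and IFIT3 of 2552. Within the same pattern, likeness was measured as the Euclidean distance between numbers of summits within 50 kb over the 6 libraries. Nearest to MX1 were ALYREF and ANAPC11 (both 4.36), and nearest to OAS2 was PLXNB1 (2). For IFIH1 the distance to SNX14 and WARS2 was 0, for IFIT1 that to NDUFA2 was 1.41, and for ISG15 that to GTF2F1 was 1.73. SETD1A was nearest to BST2 (1.73), GIGYF1 and PCSK7 to MX2 (1 each), CREB3 to OAS1 (3), TRUB1 to RSAD2 (1.41), and ELMSAN1 and HDAC4 to IFIT3 (1.73 each).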

How the data were processed

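The submitters' processing notes name the build susScr11 and the tools MACS2 2.1.2, Bowtie2 2.3.5.1 and SAMtools 1.9, with no role or order. Not given in the sources used here: the calling threshold, how the input entered, duplicate removal and pooling. The deposited score is on a −log10 scale, from p-values or from q-values, and its lowest value was 1.30 to 2.02 per list. Read depth is unknown. Of 198341 summits, 196220 lay on the 18 autosomes, X or Y and were kept. Genes were placed with a RefSeq table (assembly Sscrofa11.1) without strand, exons or sequence, so planned motif counts were not analysed here. Summits were counted within 5 kb and 50 kb of either gene end with Python 3.11.15, pandas 2.3.3 and NumPy 2.4.6. A call on a day needed 2 of 3 libraries. Days were compared gene by gene with two-sided exact permutation tests over 20 arrangements, adjusted by Benjamini-Hochberg over 19550 genes. The counting was checked on lists with known answers.

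The members and lists were chosen with earlier results of these data known. All 10 members were named. Of each list up to 6 genes could be named in alphabetical order, first those in 3 of 3 libraries of one day and 0 of 3 of the other, then those in all 6. Any gene of a list of up to 10, and any neighbour nearest to a summit in a member's window, could also be named. Like genes were the 2 at the smallest distance among genes with the same presence pattern, a symbol not starting with LOC and a place over 1 Mb from the members. A few genes that the rule would name are not reported here. Leukocyte markers were named outside this rule, after their values were seen. Alternatives were minimum scores, equal lists, other windows, libraries left out, processing sets, scaling per 10000 summits and a pairing by replicate number.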

Additional observations from a re-analysis of the deposited data

How the results depend on the processing

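Of the 160 recomputed differences between days within 50 kb, 151 kept their direction, and 8 turned, all at IFIT1, IFIT3 and IFIH1. At these 3 genes the lowest values with a library left out were without day 15 replicate 1. At IFIT1 the difference was -0.33 with equal lists, and from -1.5 to 4 when each library was left out. At IFIT3 it was -1 with equal lists and from -2.67 to 4 with libraries left out. At IFIH1 it was -0.14 per 10000 summits and from -0.33 to 0.67 with libraries left out. A kept direction did not mean a kept size. With equal lists the difference fell from 9.33 to 1 at MX1 and from 5.33 to 0.67 at OAS1 and at OAS2. MX1 then had 1, 1 and 0 summits within 50 kb on day 12 and 0, 4 and 1 on day 15, so the days overlapped. OAS1 and OAS2 each had 0, 0 and 0 and then 0, 2 and 0. Per 10000 summits the differences were 3.77 at MX1, 3.02 at OAS1 and 3 at OAS2. In presence within 5 kb, 5 genes differed between days, and of their 80 recomputed differences 76 kept the sign and 4, all at OAS1, became 0, although many of these alternatives only leave out summits or libraries. The number of genes meeting the rule on day 12 was 3 with a score of at least 10, 3 with equal lists and 10 within 50 kb. On day 15 it was 5 with a score of at least 10 and 5 with equal lists. Genes in every day 15 and no day 12 library numbered 1 with a score of at least 5, 1 with at least 10, 0 with equal lists, 0 within 50 kb, and 2 to 4 with each library left out. Genes in all 6 libraries numbered 2 with a score of at least 5, 1 with at least 10, 2 with equal lists and 2 within 1 kb. Further alternatives, added once the values were known, were a minimum score of 2 and counting day 15 replicates 2 and 3 as 1 library. Another left out both libraries whose further sample name, unlike their title, does not name the protein. These added alternatives gave 2 genes each in every day 15 and no day 12 library. Shares over all genes were not taken for them, for libraries left out or for the 1 kb window. The cause of these changes was not tested, except that equal lists and minimum scores hold fewer summits by construction. With the replicate number as a block, MX1 differed by 9.33 summits (exact sign-flip p = 0.25, the smallest possible), and no call changed. Deviations of same-numbered libraries correlated at -0.57, -0.12 and -0.43 over genes, and none correlated best with its own number. The highest values were 0.51 for the short lists of day 12 replicate 1 and day 15 replicate 3, and 0.49 for the long lists of day 12 replicate 3 and day 15 replicate 1. Because list length differed between libraries, these correlations cannot tell whether the numbers paired the libraries. With no reads, weak sites below the calling threshold could not be seen.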
